A study of Mus musculus with 6 samples.

Results

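A set of 10 genes known as direct targets of the transcription factor p53 was followed in mouse liver after 90 days of cadmium. They were chosen by name, and all 10 were found once each by symbol among the 34352 genes of the deposited table that carries symbols. They are Cdkn1a, Mdm2, Ccng1, Bax, Phlda3, Trp53inp1, Zmat3, Btg2, Gadd45a and Sesn1. The 6 libraries come from liver of wild-type C57BL/6 mice, 3 from mice given CdCl2 by gavage (20 mg per kg each day) and 3 from controls (0 mg per kg each day), all taken at day 90. The labels describe the mice as male, aged 6 to 8 weeks, with 6 mice assigned to each group. They do not say how those mice map to the 3 libraries. A p-value here rests on how far the 3 libraries of a group spread, with variances moderated across all genes tested. Whether that is a spread of single mice is not known. Each library is the input fraction of an experiment with an antibody against N6-methyladenosine, which by the labels is RNA that stayed unbound. A change in abundance and a change in the bound share cannot be told apart here.

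p53 is held low in unstressed cells by Mdm2, a ubiquitin ligase that is itself a p53 target. DNA damage and other stresses release it, and it then binds DNA as a tetramer at pairs of half-sites and raises genes that stop the cell cycle, repair damage, change metabolism or kill the cell. Hepatocytes divide rarely, and p21, the product of Cdkn1a, is one of the brakes on their entry into the cycle.

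Libraries held 42115960 to 68587128 reads, recovered from the deposited values, and the 10 genes had 30 to 4556 reads each per library. The 8 hepatocyte markers summed to 16841 to 25039 FPKM (fragments scaled to gene length and library total) in controls and 17458 to 25494 in cadmium. Xist, which marks an inactive X, stood at 19.7 to 35.5 FPKM in all 6 libraries, and the Y-linked genes Kdm5d and Uty stayed under 0.1 FPKM, which goes against the label of male mice. Control replicate 1 differed from the other libraries in that its 10 most abundant genes took 44.6% of reads, against 33.3% to 35.9%.

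RefSeq promoter sequence on GRCm38.p6 was available for 8 of the 10 genes, in 10 windows of 250 bases directly before a start site. The p53 half-site, searched on both strands, was found in 6 of these windows, belonging to Cdkn1a, Sesn1, Mdm2, Ccng1, Bax and Gadd45a, and in 7.13% of all 32851 windows of that length. The windows of 4 genes are shown because 2 of them, Cdkn1a and Sesn1, had the clearest differences between groups, while Mdm2 and Ccng1 carry the same kind of match and had overlapping groups. Capitals mark the p53 half-site, and each sequence is written on the strand of its gene.
Cdkn1a, chr17:29090729-29090978, plus strand: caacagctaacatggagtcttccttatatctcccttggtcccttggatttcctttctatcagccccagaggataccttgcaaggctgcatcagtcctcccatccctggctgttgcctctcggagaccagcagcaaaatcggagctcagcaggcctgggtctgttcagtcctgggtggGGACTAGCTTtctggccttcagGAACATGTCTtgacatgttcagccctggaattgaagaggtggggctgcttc
Sesn1, chr10:41887189-41887438, plus strand: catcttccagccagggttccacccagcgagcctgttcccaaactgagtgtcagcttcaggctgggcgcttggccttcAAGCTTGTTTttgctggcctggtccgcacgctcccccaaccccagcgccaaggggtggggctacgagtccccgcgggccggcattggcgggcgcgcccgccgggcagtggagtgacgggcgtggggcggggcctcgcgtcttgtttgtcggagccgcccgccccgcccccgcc
Mdm2, chr10:117710759-117711008, minus strand: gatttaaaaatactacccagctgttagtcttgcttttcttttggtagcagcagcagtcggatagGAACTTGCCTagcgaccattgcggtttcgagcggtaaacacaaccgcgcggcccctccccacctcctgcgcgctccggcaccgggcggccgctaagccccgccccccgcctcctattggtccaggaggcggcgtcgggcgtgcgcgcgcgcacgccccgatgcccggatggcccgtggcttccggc
Ccng1, chr11:40755287-40755536, minus strand: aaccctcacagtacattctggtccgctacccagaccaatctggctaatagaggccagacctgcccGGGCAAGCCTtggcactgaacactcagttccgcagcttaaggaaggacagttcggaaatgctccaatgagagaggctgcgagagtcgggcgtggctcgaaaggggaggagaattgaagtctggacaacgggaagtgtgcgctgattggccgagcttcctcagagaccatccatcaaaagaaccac

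In the Cdkn1a window the matches lie at -73 to -64 and -51 to -42 from that start site, and the other Cdkn1a window, before a start site further downstream, holds none. The Sesn1 match lies at -173 to -164, the Mdm2 match at -186 to -177 and the Ccng1 match at -185 to -176. The other Sesn1 window holds none. The core of the metal response element, the sequence bound by the zinc sensor MTF1, was searched on both strands as TGCACNC and TGCGCNC. The latter was found 3 times in the Mdm2 window, where a pair of matches overlaps, and once in that of Btg2, against 12.5% of all windows with at least 1 match. The former was found in none of the 10 windows, against 10.4% of all windows. A match is a run of letters and was not tested as a binding site.

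The main result was narrow: of the 10 genes Sesn1 was called higher in cadmium, and Cdkn1a was higher with a call that depended on the treatment of low values. The call of Sesn1 in FPKM also ended with no filter on low values, and without cadmium replicate 3. The other 8 showed no called change in the fits described here. The comparison used limma on log2(FPKM + 1) over the 9908 genes with at least 1 FPKM in at least 3 libraries, with p-values adjusted by the Benjamini-Hochberg method over all of them and a threshold of 0.05. Of the 10 genes, 7 passed that filter on low values, and 1 of the 7, Sesn1, was called higher and 0 lower. Over all genes tested 9.68% were called, 7.86% higher and 1.82% lower, so 1 of 7 is near the background. The median log2 fold change of the 7 was 0.11, beside 0.09 for all genes tested. Cdkn1a, Phlda3 and Zmat3 were under 1 FPKM in every library and are given by their values and by the same model without the filter, in which 0.108% of 34351 genes were called and 0 of the 10.

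**Figure D1:**
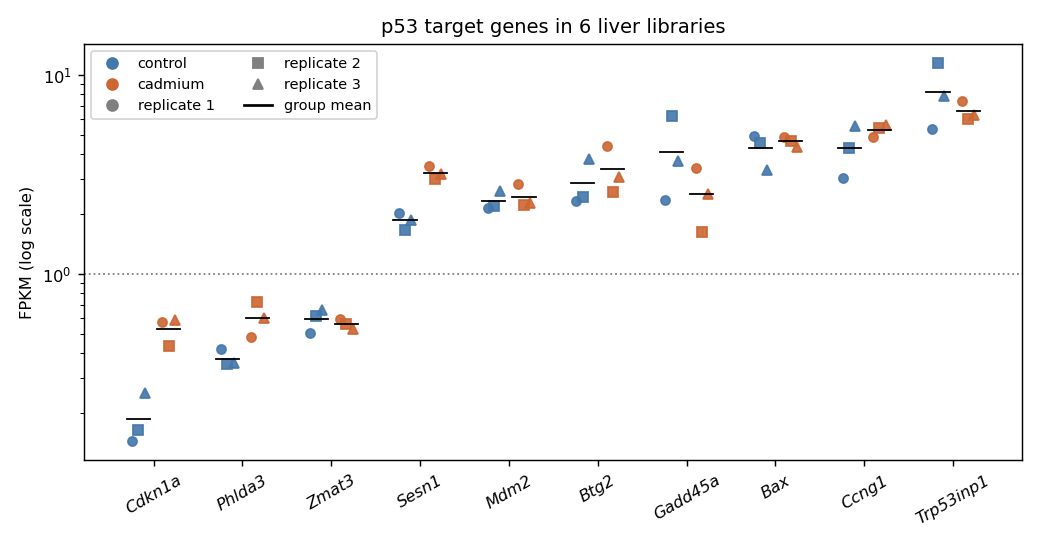
FPKM (log axis) of each p53 target gene in 6 libraries, ordered by the control mean; blue symbols are controls, orange symbols cadmium, shapes mark the replicate number, black bars are group means and the dotted line is the minimum of 1 FPKM. Cdkn1a, Phlda3 and Sesn1 have all 3 cadmium libraries above all 3 controls, and the groups of the other 7 genes overlap.

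By level, Trp53inp1 was the most abundant of the 10 at 8.21 ± 3.09 FPKM in controls (SD, n = 3), followed by Ccng1 at 4.28 ± 1.24, Bax at 4.28 ± 0.859 and Gadd45a at 4.10 ± 1.98, which did not differ beyond their spread. Btg2, Mdm2 and Sesn1 followed at 2.85 ± 0.816, 2.32 ± 0.259 and 1.86 ± 0.182 FPKM. Zmat3, Phlda3 and Cdkn1a were lowest, at 0.593 ± 0.0794, 0.377 ± 0.0378 and 0.188 ± 0.0573 FPKM. In cadmium Btg2 and Sesn1, at 3.35 ± 0.947 and 3.23 ± 0.251, stood above Gadd45a and Mdm2, at 2.52 ± 0.889 and 2.45 ± 0.346 FPKM. Phlda3, at 0.603 ± 0.119, stood above Zmat3, at 0.561 ± 0.0307 FPKM.

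Cdkn1a (ENSMUSG00000023067, chromosome 17, 29090976 to 29100727 on mm10) encodes p21, which inhibits cyclin-dependent kinases and is the best known arrest gene downstream of p53. Its level was 0.145, 0.165 and 0.253 FPKM in control replicates 1 to 3 and 0.573, 0.437 and 0.586 FPKM in cadmium replicates 1 to 3. These values rest on 37, 38 and 48 recovered reads in controls and on 107, 133 and 168 in cadmium. Every cadmium library lay above every control, and the ratio of the mean FPKM was 2.84. On the log2(FPKM + 1) scale, which compresses so low a gene, the difference was 0.37 (SE 0.06, adjusted p = 0.0876 without the filter), short of the threshold. It passed when genes with at least 0.1 FPKM in 3 libraries were tested (limma, adjusted p = 0.0446), a setting that called 3.92% of 19021 genes. It also passed with voom, limma's method for read counts, on recovered reads over the 18655 genes with at least 10 reads in 3 libraries. There the log2 fold change was 1.52 (95% interval 0.87 to 2.18, adjusted p = 0.0145), beside a median of 0.21 for all those genes, and 8.83% of them were called. With the replicate number as a block that adjusted p was 0.0307, and without cadmium replicate 3 it was 0.0623. On the same genes the authors' log2 values gave 1.31 (limma, adjusted p = 0.0243), and 5.06% of genes were called. Without that minimum of reads those values gave an adjusted p of 0.0319, and of 0.0561 with the replicate block, which ends the call. In the annotation 273 of the 3553 exonic bases of Cdkn1a are shared with a predicted gene on the opposite strand that had 77 reads in all 6 libraries together.

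Sesn1 (ENSMUSG00000038332, chromosome 10, 41809935 to 41908424) encodes sestrin 1, a stress protein that restrains the growth kinase mTORC1 and limits oxidative damage. It was at 2.03, 1.67 and 1.88 FPKM in control replicates 1 to 3 and at 3.50, 3.01 and 3.18 FPKM in cadmium replicates 1 to 3. The groups were well apart, with a gap between the highest control and the lowest cadmium library wider than either group's range. The mean rose from 1.86 ± 0.182 to 3.23 ± 0.251 FPKM, 1.74 times the control mean. Its log2 fold change was 0.57 (SE 0.09, 95% interval 0.36 to 0.77, adjusted p = 0.0133, limma). With voom on recovered reads the change was 0.80 (adjusted p = 0.00903). With the replicate block the adjusted p of the FPKM fit was 0.0474, and 2.5% of all genes were called. The call ended without cadmium replicate 3 (adjusted p = 0.0652) and without the filter on low values (0.0662).

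Phlda3 (chromosome 1, 135766119 to 135769136) encodes a pleckstrin homology protein that blocks membrane recruitment of the kinase AKT. Its level was 0.420, 0.353 and 0.357 FPKM in controls and 0.484, 0.722 and 0.602 FPKM in cadmium. The groups did not overlap, but the lowest cadmium library, replicate 1, lay close to the highest control. The log2 fold change was 0.22 (SE 0.06, adjusted p = 0.196 without the filter), and 0.68 with voom on recovered reads (95% interval 0.03 to 1.33, adjusted p = 0.176). With 30 to 96 reads per library it is the most sparsely read of the 10. Groups that did not overlap, with cadmium above, were thus seen in 3 of 10 genes, and in 26.8% of the 18655 genes with at least 10 reads in 3 libraries. The share among the p53 targets is near that background.

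**Figure D2:**
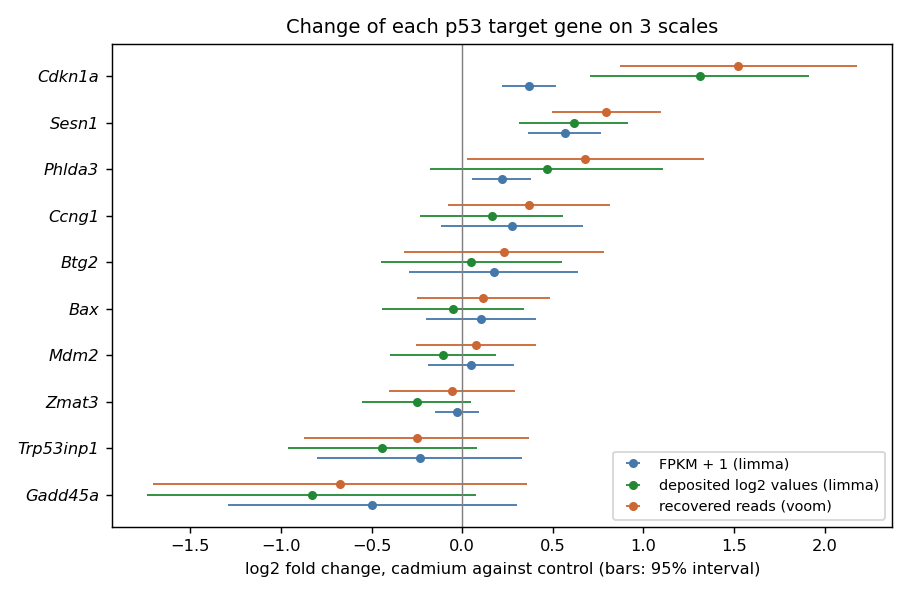
Log2 fold change (x axis, cadmium against control) of each p53 target gene with its 95% interval, in blue from log2(FPKM + 1), in green from the deposited log2 values and in orange from voom on recovered reads. Cdkn1a moves from 0.37 in FPKM + 1 to 1.52 in recovered reads, and its interval and that of Sesn1 lie above 0 on all 3 scales.

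Mdm2, the ligase that degrades p53 (chromosome 10, 117688875 to 117710758), was at 2.14, 2.20 and 2.62 FPKM in controls and 2.84, 2.21 and 2.28 FPKM in cadmium. The cadmium libraries of replicates 2 and 3 fell inside the control range. The log2 fold change was 0.05, with a 95% interval of -0.19 to 0.29 (adjusted p = 0.795, limma). Its sign turned to -0.11 in the deposited log2 values and to -0.045 after quantile normalization, so no direction can be given.

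Ccng1 (chromosome 11, 40748552 to 40755311) encodes cyclin G1, which recruits a phosphatase to Mdm2 and is among the targets most often raised by p53. Its level was 3.04, 4.27 and 5.53 FPKM in controls and 4.88, 5.38 and 5.58 FPKM in cadmium. The controls spread widely and control replicate 3 lay among the cadmium libraries. The log2 fold change of 0.28 had an interval of -0.12 to 0.67 (adjusted p = 0.337, limma).

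Bax (chromosome 7, 45461697 to 45466898) encodes the protein that opens the outer mitochondrial membrane in apoptosis. It was at 4.96, 4.56 and 3.31 FPKM in controls and 4.86, 4.67 and 4.35 FPKM in cadmium, with the cadmium libraries inside the control range. The log2 fold change was 0.11 (interval -0.20 to 0.41, adjusted p = 0.653), and -0.050 in the deposited log2 values.

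Zmat3 (chromosome 3, 32334792 to 32366014) encodes an RNA-binding zinc finger protein that acts on splicing and stability of transcripts. Its level was 0.505, 0.613 and 0.660 FPKM in controls and 0.592, 0.560 and 0.531 FPKM in cadmium, again inside the control range. Its log2 fold change of -0.03 had an interval of -0.15 to 0.09 (adjusted p = 0.826 without the filter), and -0.40 to 0.29 with voom on recovered reads.

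Btg2 (chromosome 1, 134075170 to 134079120) encodes an antiproliferative partner of the mRNA deadenylase complex and is also induced rapidly by growth and stress signals. It was at 2.33, 2.43 and 3.79 FPKM in controls and 4.41, 2.58 and 3.06 FPKM in cadmium. The log2 fold change was 0.17 (interval -0.29 to 0.64, adjusted p = 0.622). The highest library was cadmium replicate 1, and the groups overlapped.

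Trp53inp1 and Gadd45a had negative differences and the widest control spread of the 10. Trp53inp1 (chromosome 4, 11156431 to 11174379), a nuclear protein that promotes p53 activity and autophagy, was at 5.32, 11.5 and 7.84 FPKM in controls and 7.35, 6.01 and 6.32 FPKM in cadmium. Gadd45a (chromosome 6, 67035096 to 67037457), a growth arrest protein that binds PCNA and activates stress kinases, was at 2.35, 6.24 and 3.71 FPKM in controls and 3.41, 1.63 and 2.52 FPKM in cadmium. Both were highest in control replicate 2, next highest in control replicate 3 and then in cadmium replicate 1. Their log2 fold changes were -0.23 (interval -0.80 to 0.33, adjusted p = 0.575) and -0.50 (interval -1.29 to 0.30, adjusted p = 0.388). Without control replicate 2 that of Trp53inp1 was 0.01 and that of Gadd45a -0.21. Control replicate 2 was also the highest library for Gadd45b, a relative of Gadd45a, at 3.62 FPKM against 0.662 and 2.01 in the other controls and 0.509 to 1.07 in cadmium. The same held for Gdf15, a secreted stress hormone and p53 target, at 14.8 FPKM against 2.09 and 6.55 in the other controls and 1.70 to 5.31 in cadmium. Over all 9908 genes tested 19.4% had their highest FPKM in that library. Gadd45b and Gdf15 were picked out after their values were seen. In the annotation 337 of the 1764 exonic bases of Gadd45a overlap an antisense transcript, E230016M11Rik, with 494 reads in all, and whether the reads were counted by strand is not given in the sources used here.

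**Figure D3:**
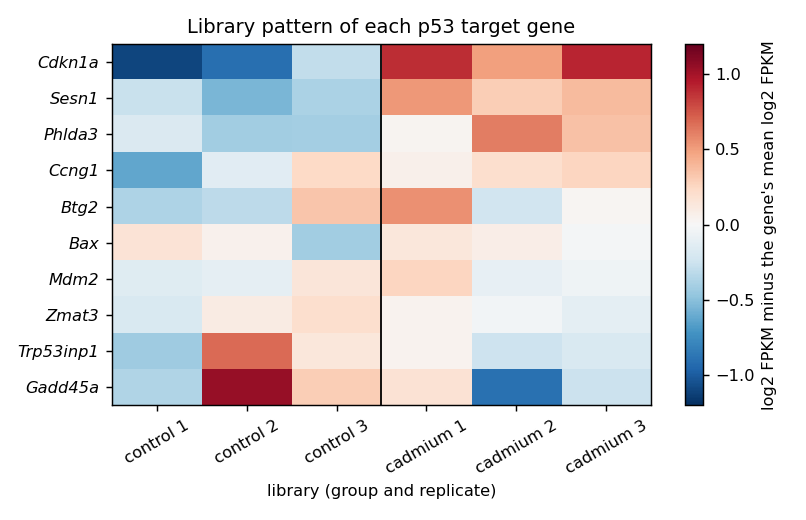
Log2 FPKM of each p53 target gene minus its own mean over the 6 libraries (colour; red above, blue below), with libraries in columns and a line between controls and cadmium. Cdkn1a, Sesn1 and Phlda3 change colour at the line, while Trp53inp1 and Gadd45a are highest in control replicate 2.

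The authors' deposited table gave a like picture with its own test. In the authors' deposited table Cdkn1a had a log2 fold change of 1.31 (FDR 0.000168) and Sesn1 of 0.61 (FDR 0.000338). In the authors' deposited table the other 8 genes had an FDR from 0.136, for Trp53inp1, to 0.979, and 6.87% of all its genes were under 0.05. The deposited values and the FPKM come from the same libraries, so this is no separate evidence.

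Markers of several cell types moved with the groups, beside the differences of Cdkn1a and Sesn1. For the counts that follow, 7.86% of all genes tested were called higher and 1.82% lower. Of the 8 hepatocyte markers Tat, a glucocorticoid-induced enzyme, fell from 450 ± 84.3 to 182 ± 57.6 FPKM (adjusted p = 0.0244) and 7 were not called. Of 8 tested Kupffer cell and macrophage markers 3 rose, and the list of 9 summed to 34.9 to 58.4 FPKM in controls and 69.0 to 80.6 in cadmium. Those 3 were Adgre1, Lyz2 and Cd68. Cd68 was at 0.888, 1.54 and 0.527 FPKM in controls and passed the filter only with the cadmium libraries, so its call is not used. Timd4, a marker of resident Kupffer cells, was at 0.582, 0.725 and 0.396 FPKM in controls and 0.111, 0.0684 and 0.0943 in cadmium (adjusted p = 0.0886 without the filter). Of the others in that list, Cd5l had means of 10.2 and 19.0 FPKM in control and cadmium, Clec4f 10.1 and 12.2, and Csf1r 4.36 and 7.16. Vsig4 had means of 3.42 and 2.84 FPKM and Marco 1.28 and 1.16. None of these was called, so the list gives no single direction. Timd4 and these others were named after their values were seen. Of 6 tested stellate cell markers 5 were called higher, and the list of 8 summed to 14.8 to 22.2 and 32.6 to 36.6 FPKM. Among these 5, Col1a1 was at 0.852, 0.838 and 0.897 FPKM in controls. It passed the filter only through the cadmium libraries, so its call is not used. Of 7 sinusoidal endothelial markers 1, Lyve1, was called higher, with sums of 23.6 to 35.4 and 32.1 to 43.3 FPKM. Lyve1 was at 0.401, 0.888 and 1.09 FPKM in controls and passed the filter only with the cadmium libraries, so its call is not used. The 3 neutrophil markers found summed to 0.0799 to 0.579 and 1.30 to 1.66 FPKM, and S100a9 passed the filter only through the cadmium libraries, so its call is not used. The sums of the lymphocyte (0.614 to 1.47 and 1.03 to 1.40), cholangiocyte (6.23 to 9.96 and 7.56 to 25.7) and erythroid markers (95.6 to 369.8 and 132.3 to 452.9) overlapped between groups. No marker with a row in the table was at 0 in all 6 libraries. Their part in the differences of Cdkn1a and Sesn1 was not tested. In bulk tissue fewer cells of a type and less RNA per cell cannot be told apart.

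p53 itself and its regulators, 28 genes found of 29 listed, held 19 that were tested, with 0 called in either direction, a median log2 fold change of 0.05 beside 0.09 for all genes, and 5 of the 19 at an unadjusted p under 0.05. At least 9.68% of all genes tested were under that unadjusted p, the share past the adjusted threshold. The full share was not counted, here or for the lists below, so such counts have no background beside them. Trp53, which encodes p53, was at 2.14, 2.30 and 3.07 FPKM in controls and 3.25, 3.33 and 3.34 FPKM in cadmium. The groups did not overlap, but the log2 fold change of 0.31 did not pass (SE 0.11, adjusted p = 0.124). Usp10, a deubiquitinase that stabilises p53, was at 5.29 ± 0.817 and 3.65 ± 0.0444 FPKM and missed the threshold by little (adjusted p = 0.0503). It was called lower in the deposited log2 values, after quantile normalization and with voom on recovered reads. That last setting tested 25 of the regulators and also called Trp53bp1, a damage response protein that binds p53, higher. Trp53bp1 was named after its values were seen. Atm, the kinase that signals DNA breaks to p53, was at 1.16 ± 0.119 and 1.49 ± 0.0911 FPKM (adjusted p = 0.134), and Daxx, a partner of Mdm2, at 2.21 ± 0.267 and 2.78 ± 0.177 FPKM (adjusted p = 0.139).

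Among 44 further p53 targets 27 were tested, and 14 of the 27 had an unadjusted p under 0.05 (limma). The share of all genes at that unadjusted p was not counted. Of the 27, 6 rose and 0 fell, beside 7.86% called higher and 1.82% lower over all genes tested. Their median log2 fold change was 0.22 beside 0.09 for all genes. With the replicate block 2 rose, Pml and Bbc3, and 1 fell, Plk3, so that of the 6 called without it only Pml stayed called. In the deposited log2 values 6 rose and 2 fell. With voom on at least 10 recovered reads 42 were tested, and 9 rose and 0 fell. That setting called 8.83% of all genes in either direction. The 6 called in FPKM without the block were Pml, Fas, Trp53i11, Tap1, Plk2 and Pltp. In controls Plk2 was at 1.09, 0.822 and 0.897 FPKM and Trp53i11 at 0.952, 1.17 and 0.808 FPKM. Both passed the filter only with the cadmium libraries, so their calls are not used, though the count of 6 includes them. Pml, the scaffold of nuclear bodies, was at 2.33, 2.71 and 2.52 FPKM in controls and 4.52, 4.64 and 5.39 FPKM in cadmium (log2 fold change 0.73, SE 0.09, adjusted p = 0.00891). Tap1, the peptide transporter of antigen presentation, rose from 2.28 ± 0.510 to 5.06 ± 1.15 FPKM (adjusted p = 0.0228). Fas, the death receptor, rose from 1.72 ± 0.0973 to 2.99 ± 0.440 FPKM (adjusted p = 0.0208). Pml, Tap1 and Fas are also known to be induced by interferons, and Pltp, the phospholipid transfer protein, by lipid-sensing nuclear receptors. Trp53i11 rose from 0.978 ± 0.185 to 1.83 ± 0.189 FPKM (adjusted p = 0.0214). Sesn2, the close relative of Sesn1 that is driven by ATF4 as well as by p53, was at 1.80 ± 0.303 and 1.81 ± 0.284 FPKM (adjusted p = 0.976), with a 95% interval of -0.26 to 0.27 on the log2 scale. Plk3, a stress kinase, was at 7.83, 20.1 and 13.7 FPKM in controls and 2.62, 4.78 and 4.47 FPKM in cadmium. Its groups did not overlap and its adjusted p was 0.0514. It was called lower with the replicate block, in the deposited log2 values and with quantile normalization. Plk2, Pltp, Bbc3, Sesn2 and Plk3 were named after their values were seen.

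**Figure D4:**
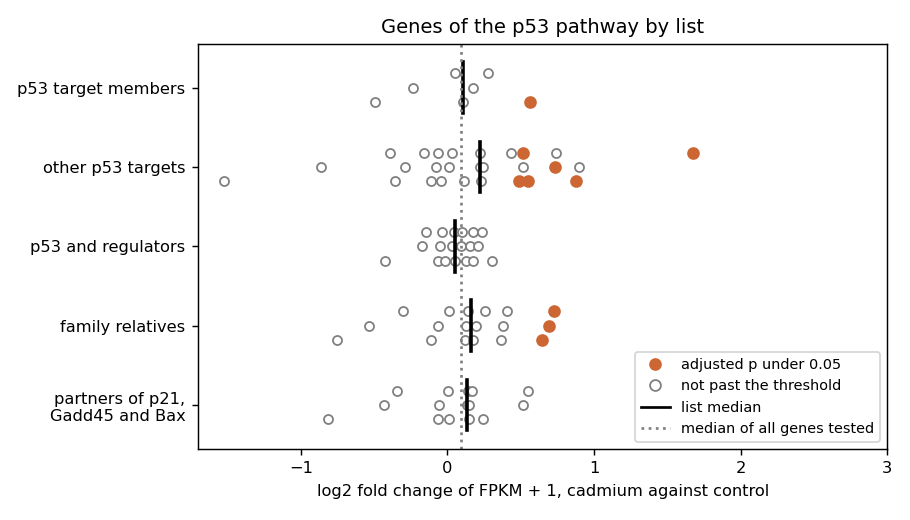
Log2 fold change of FPKM + 1 (x axis) for the tested genes of 5 lists; each point is a gene, filled orange where the adjusted p is under 0.05, black bars are list medians and the dotted line is the median of all genes tested. 1 p53 target gene of the 10, 6 further targets and 3 family relatives are filled, and 0 of the regulators or partners. Of the filled points, Plk2, Trp53i11, Bok and Ccng2 passed the filter only with the cadmium libraries.

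Relatives of the 10 genes by sequence family were 21, of which 18 were tested, and 9 of the 18 had an unadjusted p under 0.05 (limma). Here too the share of all genes at that unadjusted p was not counted. Their median log2 fold change was 0.16, and 3 rose and 0 fell, beside 7.86% called higher and 1.82% lower over all genes tested. With the replicate block the count was also 3 and 0, and in the deposited log2 values 2 rose and 2 fell. Bok, a relative of Bax, rose from 0.943 ± 0.122 to 2.22 ± 0.215 FPKM (adjusted p = 0.00869), by 0.73 on the log2 scale with an SE of 0.09. Ccng2, the relative of Ccng1 that is known as a target of FOXO factors, rose from 0.796 ± 0.205 to 1.91 ± 0.365 FPKM (adjusted p = 0.0186). Bok and Ccng2 had control means under 1 FPKM. They passed the filter only with the cadmium libraries, so their calls are not used, though the count of 3 includes them. Sesn3, a sestrin also driven by FOXO factors, rose from 1.86 ± 0.372 to 3.50 ± 0.747 FPKM (adjusted p = 0.0391). It was not called after quantile normalization or in the deposited log2 values. Of the sestrins, Sesn1 and Sesn3 were thus called higher and Sesn2 was not, and the difference between them was not tested.

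Of the partners through which p21, Gadd45 proteins and Bax act, 15 of 20 were tested and 0 were called in the FPKM fit, where 6 had an unadjusted p under 0.05. Casp9, the initiator caspase downstream of Bax, lay just outside the threshold, at 2.11 ± 0.414 FPKM in controls and 3.57 ± 0.660 in cadmium (adjusted p = 0.0506). It was called higher with voom on recovered reads. Mapk14, the stress kinase p38, was at 16.1 ± 0.597 and 12.5 ± 0.285 FPKM (adjusted p = 0.0556), and Cycs, cytochrome c, at 8.27 ± 1.50 and 5.81 ± 0.516 FPKM (0.0896). In the deposited log2 values these 2 were called lower.

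A list of cell cycle genes, drawn up around p21 and the DREAM repressor complex, was mostly too low to test. Of the 24 listed, 4 passed the filter and 0 were called, with 1 of the 4 at an unadjusted p under 0.05. Whether any of the 4, among them Ccnd1 and Myc, is lowered through that complex was not tested. Ccnd1, cyclin D1, was at 22.8, 20.7 and 13.2 FPKM in controls and 11.3, 7.16 and 12.4 FPKM in cadmium (log2 fold change -0.82, SE 0.26, adjusted p = 0.0981). Its groups did not overlap. Ccne2, cyclin E2, was at 1.55 ± 0.480 and 0.712 ± 0.512 FPKM (adjusted p = 0.193), Myc at 1.79 ± 1.08 and 0.952 ± 0.278 FPKM (0.434), and Pcna, the replication clamp bound by p21, at 7.73 ± 0.823 and 7.38 ± 0.511 FPKM (0.776). With voom on recovered reads 23 of the 24 could be tested, and Top2a, a topoisomerase of dividing cells, was called higher and Ccne1, cyclin E1, lower. These 2 were named after their values were seen.

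Among the genes whose pattern over the 6 libraries was most like that of Sesn1, by Pearson correlation of log2(FPKM + 1), were Scap, Snx14, Trim12a and Plin3, at 0.999, 0.998, 0.996 and 0.994. Trim12a was at 0.675, 0.513 and 0.645 FPKM in controls. It passed the filter, and so entered this search, only through the cadmium libraries. Scap, the escort of the sterol-regulated SREBP factors, was at 13.7 ± 1.14 FPKM in controls and 22.8 ± 1.72 in cadmium, and Plin3, a lipid droplet coat protein, at 5.14 ± 0.298 and 9.08 ± 0.632 FPKM. These are descriptions over 6 libraries in 2 groups, and they carry no test.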

How the data were processed

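The members and gene lists were chosen with earlier results of these data known. The authors' first deposited table holds FPKM per library, and their second holds symbols, log2 values per library, group means, a log2 fold change, and a p-value with its FDR, all by the authors. The submitters' processing notes name the mm10 genome, STAR 2.7.1a, cutadapt, SAMtools, MACS2 and DESeq2, with no role for any. Which counter, annotation release and test the authors used is not given in the sources used here. Undoing the log2 and subtracting 1 gave whole multiples of 1 step per library (100% within 0.05 of a read), from which reads were recovered.

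limma 3.58.1 in R 4.3.3 was fitted with a variance trend and robust moderation on log2(FPKM + 1), two-sided, over 9908 genes, and voom on recovered reads was an alternative. Scripts were tested on simulated data. Genes were named by rule: the 10 members and, per list, those called, or up to 4 of smallest p where none or more than 4 were called. A few genes that the rule names are not reported here. Columns of unknown samples numbered 0. The batch listed for each sample equals its replicate number, so each holds 1 control and 1 cadmium library. The main fit leaves this out and the fits with the replicate block include it. Deviations of same-numbered libraries correlated at -0.23 to -0.02 across genes, and those of differently numbered libraries at -0.10 to 0.28. Gene positions are from GENCODE M21 on mm10, which holds 34276 of the 34352 identifiers. FPKM are scaled to library totals, which a few abundant RNAs dominate, and the median gene moved by 0.090 on the log2 scale in FPKM, by -0.061 in the authors' log2 values and by -0.0071 with quantile normalization.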

Additional observations from a re-analysis of the deposited data

How the results depend on the processing

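Of all genes 779 were called higher and 180 lower. Quantile normalization gave 347 and 298, upper quartile scaling 510 higher, the deposited log2 values 381 and 493, no filter on low values 31 and 6, voom on at least 10 recovered reads 1429 higher, and the deposited log2 values of those genes 504 and 440. The replicate block gave 184 and 64, and on the deposited log2 values 210 and 293. Of the 10 p53 targets, the block ended the call of Cdkn1a on the deposited log2 values and changed no other call. Leaving out each library in turn gave 78 to 539 higher and 23 to 242 lower, the fewest without cadmium replicate 3. The number of p53 targets called was 1, and 0 to 1 with a library left out (0 without cadmium replicate 3). It was 0 with no filter, and 2 with the 0.1 FPKM minimum and in the tests with at least 10 recovered reads (with voom also under the replicate block).

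Cdkn1a passed at 1.31 in the deposited log2 values (adjusted p = 0.0319, and 0.0561 with the replicate block), at 1.52 with voom (1.49 with the replicate block) and at 0.37 with the 0.1 FPKM minimum. With a library left out its log2 fold change was 0.34 to 0.41 in FPKM, never called, and 1.32 to 1.74 with voom, called except without cadmium replicate 3 (1.47 without cadmium replicate 1 and 1.67 without cadmium replicate 2). Sesn1 kept its direction in all alternatives run. It was 0.57 but not called with no filter, and 0.52 to 0.61 with a library left out (0.72 to 0.86 with voom). The median of the tested p53 targets turned from 0.11 to -0.050 in the deposited log2 values, while that of all genes tested turned from 0.090 to -0.061. Mdm2 turned to -0.045 after quantile normalization and to -0.11 in the deposited log2 values, and Bax to -0.050 in the latter. With a library left out Mdm2 ranged from -0.031 to 0.11 (-0.032 to 0.17 with voom), Bax from -0.034 to 0.20 (-0.029 to 0.22), Trp53inp1 from -0.48 to 0.011 (-0.54 to 0.026) and Zmat3 from -0.068 to 0.0024 (-0.19 to 0.029). The cause of these turns was not tested. Ccng1, Btg2, Phlda3 and Gadd45a kept direction and stayed uncalled in all alternatives run, but with a library left out Btg2 ranged from 0.0052 (without cadmium replicate 1) to 0.34, Ccng1 from 0.096 (without control replicate 1) to 0.44, Gadd45a from -0.76 to -0.21 and Phlda3 from 0.16 to 0.27. With 3 libraries a group, and 30 reads in the lowest p53 target, intervals stay wide: for Phlda3 a voom change of 0.03 to 1.33 was not resolved. The read-based settings and the 0.1 FPKM minimum were chosen after seeing the data.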

Other observations

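Genes of stress axes that share p53 targets, namely glucocorticoid, ATF4, clock and metal response genes, moved in both directions. Of 16 tested, 4 rose and 5 fell, beside 7.86% called higher and 1.82% lower over all genes tested. Mt2, a metallothionein that binds cadmium, was at 4.39, 8.16 and 19.1 FPKM in controls and 667, 902 and 1284 FPKM in cadmium (log2 fold change 6.52, SE 0.52, limma adjusted p = 0.00688). Trib3, a pseudokinase induced by ATF4, rose from 1.89 ± 0.563 to 6.77 ± 1.14 FPKM (adjusted p = 0.00869), while Sesn2, which ATF4 also drives, was not called. Of the clock repressors, Nr1d1 rose from 8.84 ± 3.24 to 32.1 ± 2.52 FPKM (adjusted p = 0.0114) and Ciart fell from 4.38 ± 0.951 to 0.580 ± 0.193 FPKM (adjusted p = 0.00460). The hour at which each liver was taken is not given in the labels.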
